A study of Mus musculus with 4 samples.

Results

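Serotonin, histamine and neuropeptides are best known from neurons, mast cells and enteroendocrine cells, but lymphocytes can carry transcripts for making them. The 8 genes described here are Tph1, Ddc, Maoa, Hdc, Calca, Calcb, Penk and Vip, taken by symbol from the 22083 genes of the deposited table. All 8 were found. Group 2 innate lymphoid cells (ILC2s), tissue-resident lymphocytes without antigen receptors that secrete type 2 cytokines, were sorted from 2 tissues of wild-type (WT) C57BL/6 mice of 9 weeks. The intestinal cells (SI-ILC2s) were taken from small intestinal lamina propria and the adipose cells (WAT-ILC2s) from mesenteric white adipose tissue, with 2 libraries each and no treatment named. No label ties a library to a mouse, so a p-value reflects no more than the differences among these 4 libraries, and those may be technical.

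Serotonin is made from tryptophan in 2 steps: a tryptophan hydroxylase, which outside the brain is Tph1, adds a hydroxyl group, and the decarboxylase Ddc then removes the carboxyl group. Monoamine oxidases, among them Maoa, break serotonin down. Histamine needs a single step, the decarboxylation of histidine by Hdc. Calcitonin gene-related peptide (CGRP, from Calca or Calcb), the enkephalins (from Penk) and vasoactive intestinal peptide (from Vip) are cut out of longer precursors by proprotein convertases and trimmed by carboxypeptidases. CGRP and vasoactive intestinal peptide act on ILC2s through receptors, and ILC2s of adipose tissue have been described as a source of Met-enkephalin.

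What the peptide genes encode bears on what a value per gene can show. The Penk precursor of 268 residues holds 7 enkephalin units, 6 with the sequence of Met-enkephalin and 1 with that of Leu-enkephalin. Units 4 and 7, both with the Met-enkephalin sequence, have no pair of basic residues after them. All 7 units lie in exon 2 of 2, so reads from any unit count for the same gene. The units are shown because each Penk transcript yields several peptides. Capitals mark the 5 codons of the enkephalin, and the lower-case codons beside them encode the neighbouring residues, which are pairs of basic residues on both sides in 5 of the 7 units (GENCODE M21, GRCm38, minus strand).
Penk unit 1, chr4:4134328-4134354: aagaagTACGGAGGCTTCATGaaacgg
Penk unit 3, chr4:4134220-4134246: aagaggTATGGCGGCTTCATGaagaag
Penk unit 6 (Leu-enkephalin), chr4:4133935-4133961: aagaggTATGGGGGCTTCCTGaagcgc
Penk unit 7, chr4:4133842-4133868: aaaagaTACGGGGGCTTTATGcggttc

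Calca and Calcb are neighbours on chromosome 7, and each encodes a CGRP of 37 residues. Their coding stretches are shown because the paralogs differ by little in sequence and by far in level. They are 95.5% identical, with 5 of 111 bases different (capitals), which changes 3 residues. The longest run that Calca and Calcb transcripts share without a difference is 61 bases. Exons are numbered within the transcripts Calca-201 and Calcb-201, so the numbers are not those of all exons of the gene.
Calca exon 4, chr7:114632470-114632580, minus strand: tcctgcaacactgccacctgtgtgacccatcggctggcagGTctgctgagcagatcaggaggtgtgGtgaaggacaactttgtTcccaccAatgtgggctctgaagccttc
Calcb exon 4, chr7:114721994-114722104, plus strand: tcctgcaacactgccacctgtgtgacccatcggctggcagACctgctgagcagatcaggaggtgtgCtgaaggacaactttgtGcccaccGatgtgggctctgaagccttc

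Values are RPKM as deposited, reads scaled to the length of the gene and to the reads of the library, so levels of different genes can be set side by side. Depth, fitted to the smallest steps between values of single-exon genes, was 55300000 to 75700000 reads per library, and the median gene had 0.193 to 0.246 RPKM. Genes with at least 1 RPKM in at least 2 libraries were tested with limma on log2(RPKM + 1), which understates changes of low genes. A change is the intestinal minus the adipose mean on that scale, given with the standard error (SE). Of 8230 genes tested, 17.9% passed an adjusted p below 0.05 with a higher level in SI-ILC2s, and 29.6% passed it with a higher level in WAT-ILC2s. SI-ILC2s held 37.6% of the calls (1470 against 2436), or 48.4% (1772 against 1886) after quantile normalization and 47.7% (1788 against 1958) with median-of-ratios scaling, and 28% (1125 against 2891) after rescaling to equal sums. The number higher in WAT-ILC2s was 1492 without SI-ILC2 replicate 1. The median tested gene had a change of -0.15, which became -0.024 after quantile normalization, -0.035 with median-of-ratios scaling and -0.26 after rescaling to equal sums. The 14 ILC2 markers summed to 1541 and 1500 RPKM in SI-ILC2 replicates 1 and 2 and to 1297 and 1195 in WAT-ILC2 replicates 1 and 2. Lists of markers of other cells summed to between 0.919 and 18.2 RPKM in each library, leaving out Ret, which alone reached 33.7 and 31.8 RPKM in SI-ILC2s.

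**Figure D1:**
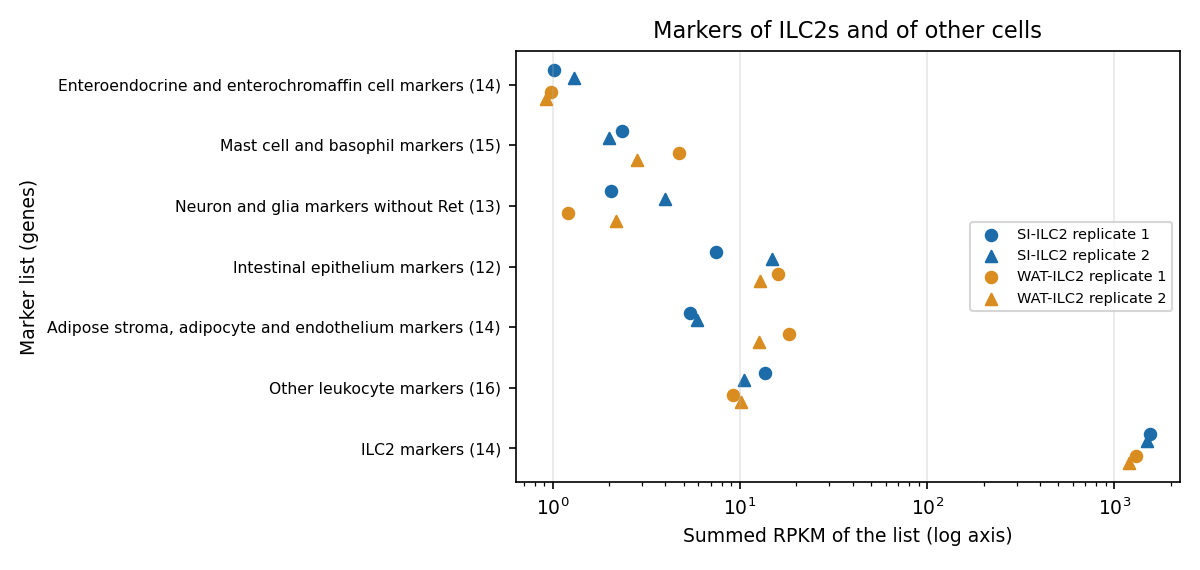
Summed RPKM (log axis) of lists of marker genes, 1 point per library, with the number of genes in each list in parentheses. The ILC2 markers lie at 1195 RPKM or above in every library, and the other lists, drawn without Ret, lie at 18.2 or below.

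Of the 8 mediator genes, 4 reached the filter. Among these, Tph1 and Penk were higher in SI-ILC2s, Hdc was higher in WAT-ILC2s and Calca did not pass the test. Tph1 and Penk reached the filter through their SI-ILC2 values alone, so their calls are no measure of how often such genes differ. The same holds for the marker gene Igj. That limit applies in reverse to Maob, Ccbl2, Cpe, Cpa3, Lyz2, Fabp4, Dcn and Col3a1, which reached the filter through their WAT-ILC2 values alone. Over all 8 genes, the intestinal pair of libraries lay above the adipose pair for Tph1, Penk and Calcb, as it did for 23% of all 22083 genes. The reverse held for Hdc and Maoa, and for 30.8% of all genes. The groups overlapped for Ddc, Calca and Vip. For a single gene in this design, the smallest two-sided p of an exact permutation test is 0.333.

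**Figure D2:**
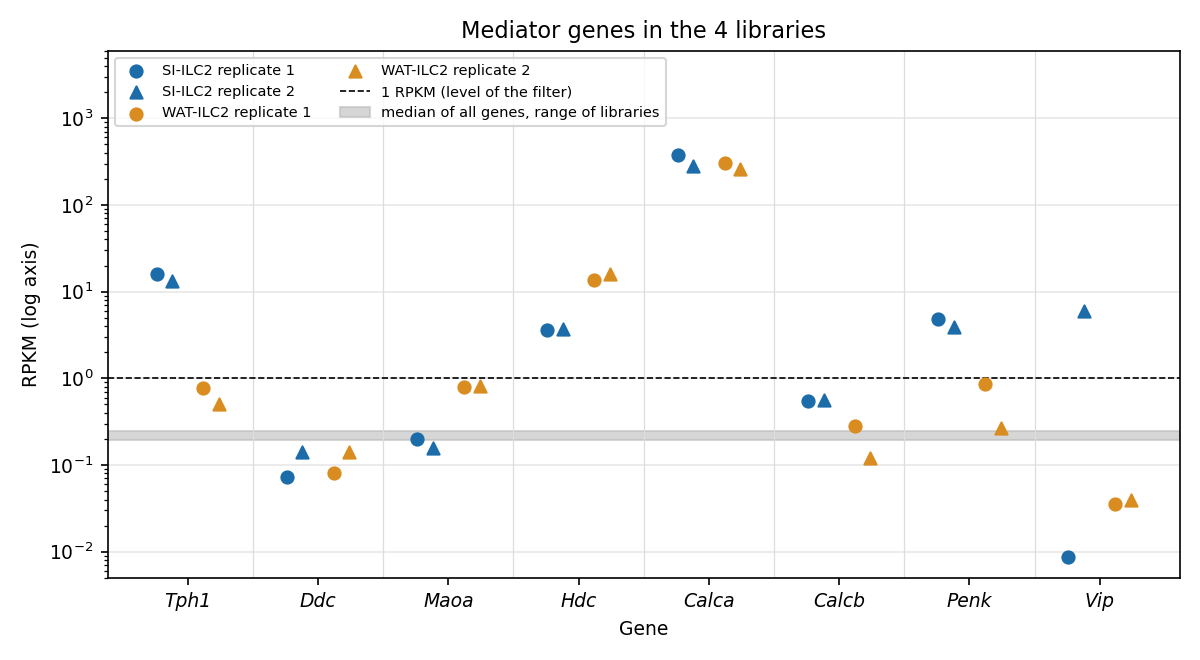
RPKM (log axis) of the 8 genes, 1 point per library; the dashed line is the 1 RPKM of the filter and the grey band is the median of all genes, 0.193 to 0.246 RPKM over the libraries. Calca is at 261 RPKM or above in all 4 libraries, Tph1 and Hdc are high in opposite tissues, and Vip is high in SI-ILC2 replicate 2 alone.

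Transcripts of the first enzyme of serotonin synthesis differed between the tissues. Tph1 (chromosome 7, 46644641 to 46672537) was at 16.0 and 13.2 RPKM in SI-ILC2 replicates 1 and 2 and at 0.771 and 0.505 in WAT-ILC2 replicates 1 and 2. Both intestinal libraries were high and both adipose libraries were below 1 RPKM, with no overlap. The ratio of the means was 22.9, and the change was 3.25 (SE 0.17, adjusted p = 1.7e-04, limma). In bulk RNA, a lower share of Tph1-expressing cells and less Tph1 RNA per cell cannot be told apart, and this holds for each gene below.

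Ddc, the second enzyme of the pathway, did not follow Tph1. Its values were 0.073 and 0.142 RPKM in intestinal cells against 0.0808 and 0.140 in adipose cells, below the median gene in every library. At the fitted depth these values correspond to about 9.0 to 18.4 reads per library on the longest coding transcript. In SI-ILC2s, the value of Tph1 was 219 and 93.4 times that of Ddc. Ddc was below the filter and was not tested.

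Transcripts of the vesicle transporter and of the genes Gch1 and Qdpr, which serve the hydroxylase's cofactor, were present in both tissues. Of the 8 genes on the cofactor list, 5 stayed below 1 RPKM in every library. Among these, Spr was at 0.286 and 0.760 RPKM in intestinal cells against 0.394 and 0.751 in adipose cells. Pcbd1 was at 0.114 and 0.207 against 0.0890 and 0.113 RPKM. Slc18a2, the vesicular monoamine transporter that loads serotonin and histamine into vesicles, was at 4.99 and 5.80 RPKM in intestinal cells against 4.43 and 3.95 in adipose cells (change 0.30, SE 0.15, adjusted p = 0.14, limma). The serotonin reuptake transporter gene Slc6a4 and the neuronal hydroxylase gene Tph2 stayed below 0.2 RPKM. Gch1, which starts the synthesis of the cofactor tetrahydrobiopterin, had 5.30 ± 0.156 RPKM in intestinal cells against 5.94 ± 0.643 in adipose cells (mean ± SD, n = 2 each), and its adjusted p from limma was 0.47. Qdpr, which regenerates the cofactor, was higher in WAT-ILC2s at 12.7 ± 0.949 against 8.42 ± 0.841 RPKM (SD, n = 2 each, limma adjusted p = 0.025). That call was lost in 6 of the 12 alternatives, among them median-of-ratios scaling (adjusted p = 0.080) and without SI-ILC2 replicate 2 (adjusted p = 0.16).

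Both monoamine oxidase genes had their higher values in WAT-ILC2s, and Maob, which reached the filter through those values alone, was called there. Maoa (chromosome X, 16619698 to 16687818) was at 0.199 and 0.157 RPKM in intestinal cells against 0.796 and 0.815 in adipose cells, so the groups did not overlap, and the ratio of the adipose to the intestinal mean was 4.53. All 4 values lay below the filter, and Maoa was therefore not tested in the main analysis. With the filter lowered to 0.2 RPKM it was called, with a change of -0.62 and an adjusted p of 0.0037 from limma. Maoa reached that lower filter through its WAT-ILC2 values alone, so the limit named for Maob applies to this call. Its neighbour Maob, the other monoamine oxidase, lies on the opposite strand of chromosome X (16709282 to 16817366). Maob was at 0.107 and 0.144 RPKM in intestinal cells against 6.06 and 8.04 in adipose cells, a change of -2.83 (SE 0.16, adjusted p = 2.2e-04, limma). Within each WAT-ILC2 library Maob was 7.62 and 9.87 times Maoa, and within each SI-ILC2 library 0.535 and 0.918 times.

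Markers of adipose stroma also had higher values in WAT-ILC2s. Of 4 tested markers, 3 (Fabp4, Dcn and Col3a1) were called there, against 29.6% of all genes tested. Those 3 reached the filter through their WAT-ILC2 values alone. The endothelial gene Pecam1 was called higher in SI-ILC2s. The 14 markers of adipose stroma, adipocytes and endothelium summed to 5.39 and 5.91 RPKM in intestinal cells and to 18.2 and 12.6 in WAT-ILC2s, with 11 of 14 means higher in WAT-ILC2s. Fabp4, a fatty acid binding protein of adipocytes and capillaries, was at 4.32 and 3.43 RPKM in WAT-ILC2s and Dcn, the fibroblast gene of decorin, at 6.11 and 1.87, whereas the adipocyte gene Adipoq was at 0.0139 and 0.106. Their part in the values of Maoa and Maob was not tested.

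Tryptophan uptake and its other uses formed a list of 16 genes, of which 8 were tested. Of these, 5 were higher in WAT-ILC2s and 1 in SI-ILC2s, against 29.6% and 17.9% of all genes tested. The median change of the 8 was -0.55, against -0.15 over all genes tested. Slc3a2, the heavy chain of the large neutral amino acid transporters, rose in SI-ILC2s to 247 ± 12.6 from 124 ± 6.95 RPKM (SD, n = 2 each, limma adjusted p = 0.0039). The light chains Slc7a8 and Slc7a5, which carry the amino acid, moved the other way. Slc7a8 was at 12.9 and 15.2 RPKM in intestinal cells against 44.9 and 50.7 in adipose cells (change -1.70, adjusted p = 6.5e-04, limma), and Slc7a5 at 5.94 and 7.24 against 9.98 and 13.3 (change -0.73, adjusted p = 0.019, limma). Slc7a5 lost its call without SI-ILC2 replicate 1 (adjusted p = 0.11). Ccbl2, an older symbol of a kynurenine aminotransferase gene, was higher in WAT-ILC2s at 2.26 and 2.20 against 0.463 and 0.509 RPKM (limma adjusted p = 0.0010). Wars, the tryptophanyl-tRNA synthetase, was also higher there at 10.1 ± 1.42 against 6.13 ± 1.87 RPKM (SD, n = 2 each), a call (limma adjusted p = 0.044) that was lost in 4 of the 12 alternatives, among them without SI-ILC2 replicate 1 (adjusted p = 0.25). The dioxygenase genes Ido1, Ido2 and Tdo2, which divert tryptophan into the kynurenine pathway, were at or below 0.360 RPKM in all 4 libraries.

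Markers of other cells that make serotonin were low. None of 14 markers of enteroendocrine and enterochromaffin cells, the main serotonin source of the gut, exceeded 0.292 RPKM. Their sum was 1.02 and 1.29 RPKM in intestinal cells against 0.978 and 0.919 in adipose cells. Chga, the chromogranin that marks these cells, was at 0.154 and 0.249 RPKM in intestinal cells against 0.0766 and 0.0889 in adipose cells, and the transcription factor gene Neurod1 was at or below 0.0396. No marker of this list was at 0 in every library. Mouse mast cells also express Tph1, and their 15 markers summed to 2.35 and 2.00 RPKM in intestinal cells and to 4.73 and 2.82 in adipose cells. Markers of other leukocytes (16 genes) summed to 13.6 and 10.5 RPKM in SI-ILC2s against 9.14 and 10.1 in WAT-ILC2s. Among them Igj, the joining chain gene of plasma cells, was higher in the intestine, with 7.02 and 5.51 RPKM against 0.0129 and 0 (change 2.84, adjusted p = 1.9e-04, limma). Igj reached the filter through its SI-ILC2 values alone, so its call carries the limit named for Tph1 and Penk. The part of mast cells, plasma cells or the other cells named here in the values of Tph1 or Penk was not tested.

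The gene of the histamine-forming enzyme differed in the opposite direction to Tph1. Hdc (chromosome 2, 126593667 to 126619299) was at 3.61 and 3.67 RPKM in intestinal cells against 13.5 and 15.9 in adipose cells. Both adipose libraries were high, the intestinal pair was low and close together, and the groups did not overlap. The ratio of the adipose to the intestinal mean was 4.05, and the change was -1.76 (SE 0.15, adjusted p = 5.3e-04, limma). In WAT-ILC2s its mean of 14.7 RPKM was close to that of Tph1 in SI-ILC2s, 14.6 RPKM.

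Little transcript was seen for the known routes of histamine breakdown. Hnmt, the methyltransferase that inactivates histamine inside cells, was at or below 0.0443 RPKM, and Aoc1, the diamine oxidase, at or below 0.0849 RPKM. Aldh7a1, an aldehyde dehydrogenase with a wide range of substrates, was higher in WAT-ILC2s at 2.54 and 2.21 against 1.22 and 1.25 RPKM (limma adjusted p = 0.013). It lost its call without SI-ILC2 replicate 1 (adjusted p = 0.061) and without SI-ILC2 replicate 2 (adjusted p = 0.052). Of the 6 genes on the histamine list 2 were tested, Hdc and Aldh7a1. Both were higher in WAT-ILC2s, as were 29.6% of all genes tested, and 2 genes are too few to compare with that share.

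Markers of mast cells and basophils, the classical makers of histamine, were low but not evenly so. Of the 15 markers, 10 had a higher mean in WAT-ILC2s and 5 in SI-ILC2s. Hpgds, the most abundant of the list, was at 1.20 and 1.11 RPKM in intestinal cells against 1.07 and 0.626 in adipose cells. It did not pass the test (change 0.23, adjusted p = 0.24, limma). Mcpt8, Ms4a2, Prss34 and Cd200r3 also had a higher intestinal mean, all at or below 0.0979 RPKM. Cpa3, the mast cell carboxypeptidase, was at 0.171 and 0.211 RPKM in intestinal cells against 1.26 and 1.11 in adipose cells (change -0.87, adjusted p = 0.0016, limma). Fcer1a, a subunit of the IgE receptor, was at 0.160 and 0.167 against 0.525 and 0.428 RPKM. Of the mast cell proteases, Cma1 was at 0.0122 and 0 RPKM in intestinal cells against 0.285 and 0.0283 in adipose cells, and Tpsab1 at 0.0829 and 0.0419 against 0.235 and 0.0920. Tpsb2 and Mcpt4 were highest in WAT-ILC2 replicate 1, at 0.599 and 0.255 RPKM, as were 8 of the 15 markers. Mcpt2 was at 0 in 3 libraries, Mcpt1 ranged from 0 to 0.0525 RPKM, and Ms4a2 and Mcpt8 did not exceed 0.0979 RPKM. Hdc was 21.1 and 17.4 times Cpa3 in SI-ILC2s and 10.8 and 14.3 times Cpa3 in WAT-ILC2s. The macrophage and granulocyte gene Lyz2 was also higher in WAT-ILC2s, at 0.633 and 0.331 RPKM in intestinal against 3.53 and 5.50 in adipose cells (change -1.88, adjusted p = 0.0012, limma), and Emr1, the macrophage gene of F4/80, was at 0.0868 and 0.0316 against 0.357 and 0.689. The part of these cells in the values of Hdc, Maoa and Maob was not tested.

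The sequences upstream of Tph1 and Hdc are shown because these enzymes changed in opposite directions. The set of RefSeq starts used here (GRCm38.p6) covered 6 of the 8 genes, with 2 starts for Tph1, the inner of which is printed. Penk and Calcb had no start in that set, so their upstream sequences were not searched. The motif searched was TGACG on both strands (CGTCA on the other), the shared core of cAMP response elements, in the 250 bases before each start. It was found 3 times before the inner Tph1 start (capitals), once before the outer Tph1 start and before the starts of Calca, Maoa and Vip, and not before the Hdc start or either Ddc start. Of 32851 starts in the table, 17.8% held at least 1 match and 0.7% held at least 3. A match describes these letters only.
Tph1, chr7:46667378-46667627, minus strand: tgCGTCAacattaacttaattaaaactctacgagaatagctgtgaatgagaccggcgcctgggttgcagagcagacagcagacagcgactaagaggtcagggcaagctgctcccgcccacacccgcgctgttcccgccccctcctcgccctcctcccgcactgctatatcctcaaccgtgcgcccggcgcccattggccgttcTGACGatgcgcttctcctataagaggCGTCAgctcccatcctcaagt
Hdc, chr2:126618679-126618928, minus strand: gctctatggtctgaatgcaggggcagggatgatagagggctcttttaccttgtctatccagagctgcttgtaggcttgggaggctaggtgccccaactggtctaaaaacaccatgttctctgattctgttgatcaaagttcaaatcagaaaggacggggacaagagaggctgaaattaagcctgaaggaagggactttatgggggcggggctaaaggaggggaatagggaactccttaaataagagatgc

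Calca was by far the most abundant of the 8 genes in both tissues. Calca (chromosome 7, 114631478 to 114636357), which encodes calcitonin and CGRP by alternative splicing, was at 375 and 279 RPKM in intestinal cells against 303 and 261 in adipose cells. The groups overlapped, since the lower intestinal value lay between the adipose values. The change was 0.20 (SE 0.21, adjusted p = 0.46, limma), with a 95% interval from -0.31 to 0.71. Its direction turned with quantile normalization (-0.038) and without SI-ILC2 replicate 1 (-0.011). By its mean, Calca ranked at the 99.7th percentile of all genes, and its level was 0.657 to 1.06 times that of Gata3, the transcription factor of the lineage, within each library.

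The table holds a single value for Calca, and only 1 of its 6 annotated coding transcripts contains the whole CGRP stretch shown above. How the reads divide between calcitonin and CGRP mRNA was not analysed here. Calcb (chromosome 7, 114718643 to 114723365) was at 0.547 and 0.563 RPKM in intestinal cells against 0.283 and 0.121 in adipose cells. The intestinal pair was higher with no overlap, on about 39.9 and 32.5 reads against 15.1 and 7.6. Calcb lay below the filter. With the filter lowered to 0.2 RPKM it passed (change 0.37, limma adjusted p = 0.029), and with no filter it did not (adjusted p = 0.068). Calca was 686 and 496 times Calcb in SI-ILC2s and 1070 and 2155 times Calcb in WAT-ILC2s. Whether reads of Calca were counted for its paralog was not tested, and no source used here states how multi-mapped reads were treated.

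Penk, the precursor of the enkephalins, was low in adipose tissue and higher in the intestine. Penk (chromosome 4, 4133531 to 4138819) was at 4.82 and 3.96 RPKM in intestinal cells against 0.852 and 0.268 in adipose cells. Both intestinal libraries lay above both adipose libraries, and in proportion to their level the adipose replicates differed more from each other than the intestinal ones. The ratio of the means was 7.84 and the change 1.81 (SE 0.21, adjusted p = 0.0014, limma). With a pseudocount of 0.1 the change was 2.92. The adipose values rest on about 68.3 and 25.4 reads. Exons of Penk overlap a gene on the opposite strand, A830012C17Rik, and no source used here states whether counting used the strand. The same holds, among other genes named here, for Slc18a2, Qdpr, Aldh7a1, Furin, Pcsk7, Afmid and Gata3. Exons of Nmb, Afmid and Gata3 overlap a gene on the same strand, which for Nmb is Sec11a.

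Vip was high in a single library. Vip (chromosome 10, 5639218 to 5647617) was at 6.01 RPKM in SI-ILC2 replicate 2, and at 0.0086 in SI-ILC2 replicate 1 and 0.0354 and 0.0398 in WAT-ILC2 replicates 1 and 2. On the coding transcript of 1530 bases these values correspond to about 551.8 reads against 1.0, 3.0 and 4.0. The SI-ILC2 libraries thus lay on either side of the adipose libraries. The change was 1.36 with all libraries and -0.041 without SI-ILC2 replicate 2, and Vip was below the filter.

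Other genes set the same library apart. In SI-ILC2 replicate 2, 10 genes had at least 1 RPKM and at least 10 times the highest value of the other 3 libraries, a limit chosen after the values were seen. No gene met it in any of the other 3. Besides Vip, these were Tff2, Gkn3, Agr2, Krt8, 2310057J18Rik, Dbh, Aqp5, Scgn and Slc12a8. Tff2, a trefoil factor of mucus-secreting epithelium, was at 77.3 RPKM there against 2.00 in SI-ILC2 replicate 1 and 0.154 and 0.104 in WAT-ILC2s. Gkn3, a gastrokine gene, was at 34.9 RPKM against 0.716 in SI-ILC2 replicate 1 and below 0.15 in both WAT-ILC2 libraries. Krt8, a keratin of simple epithelium, was at 4.32 against 0.240 RPKM in the other intestinal library. Dbh, which turns dopamine into noradrenaline, was at 1.92 against 0.101 RPKM.

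**Figure D3:**
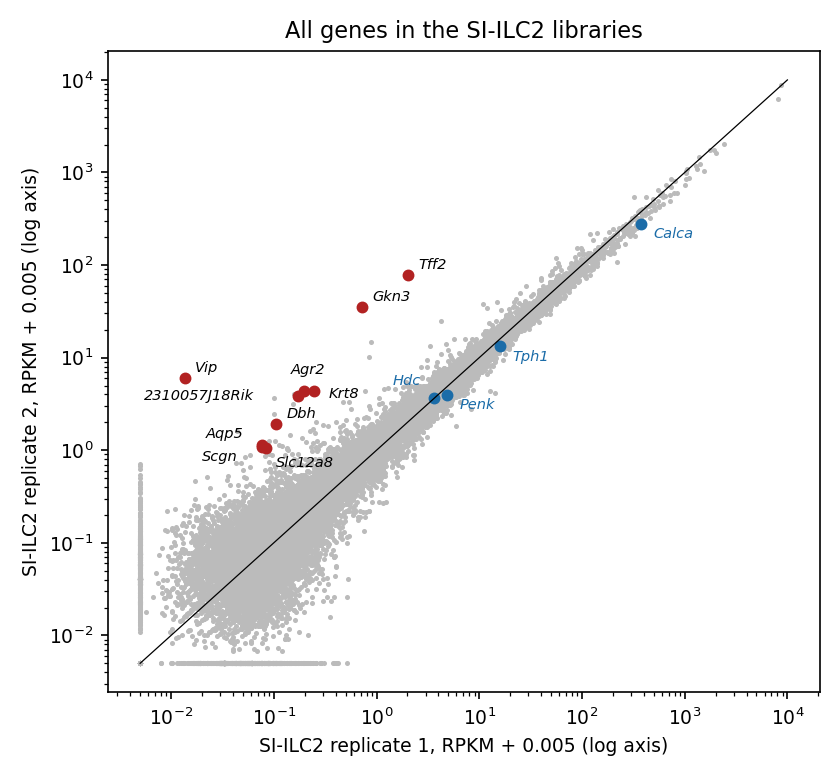
RPKM plus 0.005 of all genes in SI-ILC2 replicate 1 and SI-ILC2 replicate 2 (log axes), 1 point per gene, with the line of equal values. Red points are the 10 genes with at least 10 times the highest value of the other 3 libraries, Vip among them, and blue points are Calca, Tph1, Hdc and Penk, which lie near the line.

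Markers of neurons and of epithelium were also compared in that library. The 12 epithelial markers summed to 14.9 RPKM in SI-ILC2 replicate 2 and to 7.44 in SI-ILC2 replicate 1, and to 16.0 and 12.9 in WAT-ILC2s. Epcam (4.68 and 6.04 RPKM in intestinal against 8.28 and 7.85 in adipose cells) and Lgals4 (1.37 and 1.09 against 4.94 and 3.68) held most of the adipose sums. Krt18, the partner keratin of Krt8, was at 2.01 RPKM in SI-ILC2 replicate 2 and at or below 0.254 in the other libraries, so the keratin pair, unlike those genes, set SI-ILC2 replicate 2 apart. Without Ret, the 13 neuron and glia markers summed to 3.98 RPKM in SI-ILC2 replicate 2, against 2.04 in SI-ILC2 replicate 1 and 1.21 and 2.18 in WAT-ILC2s. Uchl1 was the highest of these in SI-ILC2 replicate 2 at 1.90 RPKM. The part of these cells in the value of Vip was not tested. Tph1, Penk and Hdc kept their calls without SI-ILC2 replicate 2, with changes of 3.38, 1.93 and -1.77.

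Most other peptide precursors were near 0. Of 26 further genes of neuropeptide and peptide hormone precursors, 24 stayed below 0.5 RPKM in every library, among them Tac1 (substance P), Npy, Sst, Nmu and Adcyap1. The other two were Adm and Nmb. Adm, the precursor of adrenomedullin, a vasodilator peptide of the CGRP family, was at 1.84 and 1.39 RPKM in intestinal cells against 7.32 and 8.08 in adipose cells (change -1.74, SE 0.16, adjusted p = 6.5e-04, limma). Nmb, the precursor of neuromedin B, was at 1.82 and 0.839 RPKM in intestinal cells against 1.23 and 1.69 in adipose cells, and did not pass the test (change -0.10, adjusted p = 0.72, limma). Its direction turned with quantile normalization. The list thus held 4 tested genes of 30, with Penk higher in SI-ILC2s and Adm higher in WAT-ILC2s.

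Of the tested genes of enzymes that cut and trim precursors, 3 of 6 were higher in WAT-ILC2s, where Penk was low. Over all genes tested that share was 29.6%. Pcsk1 (chromosome 13, 75089826 to 75134861), the prohormone convertase of regulated secretion, was at 1.49 and 2.13 RPKM in intestinal cells against 18.9 and 19.6 in adipose cells. The groups were far apart, with a ratio of the adipose to the intestinal mean of 10.6 and a change of -2.86 (SE 0.16, adjusted p = 2.1e-04, limma). Furin, the convertase of the constitutive pathway, was at 11.5 ± 3.09 RPKM in intestinal cells against 18.2 ± 0.927 in adipose cells (SD, n = 2 each, limma adjusted p = 0.037). The call of Furin was lost with no filter, with median-of-ratios scaling (adjusted p = 0.059) and without SI-ILC2 replicate 1 (adjusted p = 0.24). Within a library, Pcsk1 was 0.159 and 0.156 times Furin in SI-ILC2s and 1.08 and 1.04 times Furin in WAT-ILC2s.

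Cpe, the carboxypeptidase that removes the basic residues left after cleavage, was at 0.239 and 0.642 RPKM in intestinal cells against 1.80 and 1.67 in adipose cells (change -0.94, adjusted p = 0.0049, limma). Qpct, which forms the pyroglutamate end of some peptides, was the exception among the called genes, at 3.75 and 3.14 against 1.43 and 1.22 RPKM (change 0.93, adjusted p = 0.0037, limma). Cpd, another carboxypeptidase gene, was also above Cpe and higher in both intestinal libraries, at 2.01 and 2.28 against 1.17 and 1.81 RPKM. It did not pass the test (change 0.34, adjusted p = 0.13, limma). Pcsk7 at 3.29 ± 0.0184 and 3.58 ± 0.345 RPKM did not pass the test (SD, n = 2 each, limma adjusted p = 0.62), and its direction turned with median-of-ratios scaling and quantile normalization. Pam, the enzyme that amidates the ends of CGRP and vasoactive intestinal peptide, was at or below 0.117 RPKM and Pcsk2 at or below 0.182. In all, 6 of 21 genes of this list were tested, of which 3 were higher in WAT-ILC2s, 1 in SI-ILC2s and 2 did not pass. Over all genes tested, 29.6% were higher in WAT-ILC2s and 17.9% in SI-ILC2s.

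**Figure D4:**
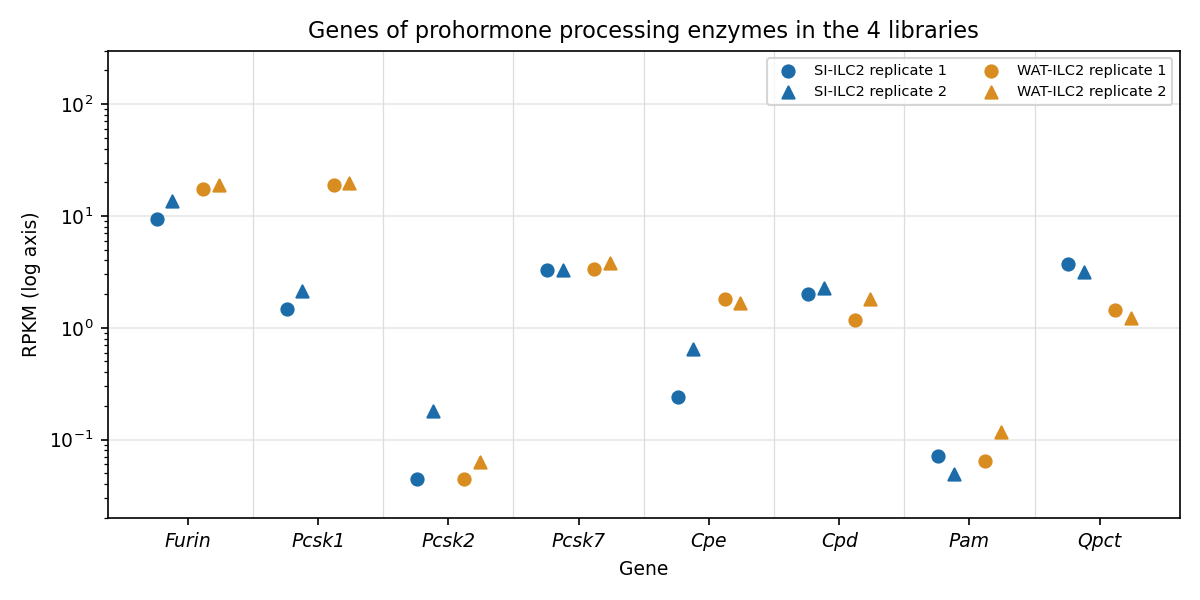
RPKM (log axis) of genes of enzymes that process peptide precursors, 1 point per library. Pcsk1 is near 19 RPKM in both WAT-ILC2 libraries and at or below 2.13 in SI-ILC2s, and Pcsk2 and Pam lie below 0.2 in all 4.

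Genes that end peptide signals did not pass the test. Of 9 peptidase genes whose products can cleave enkephalin, CGRP or vasoactive intestinal peptide, 5 were tested and none was called by limma in either direction, with 0 at an unadjusted p below 0.05. Of these, Ide, the insulin-degrading enzyme, was the most abundant at 18.6 ± 3.71 RPKM in intestinal cells against 15.5 ± 5.01 in adipose cells (SD, n = 2 each, limma adjusted p = 0.39), and its direction turned without WAT-ILC2 replicate 1. Mme, the enkephalinase neprilysin, was at or below 0.0714 RPKM. Of the 8 genes for catecholamine and acetylcholine metabolism 1 was tested and none was called by limma, with 0 at an unadjusted p below 0.05, and Chat, the choline acetyltransferase, was at or below 0.0596 RPKM.

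**Figure D5:**
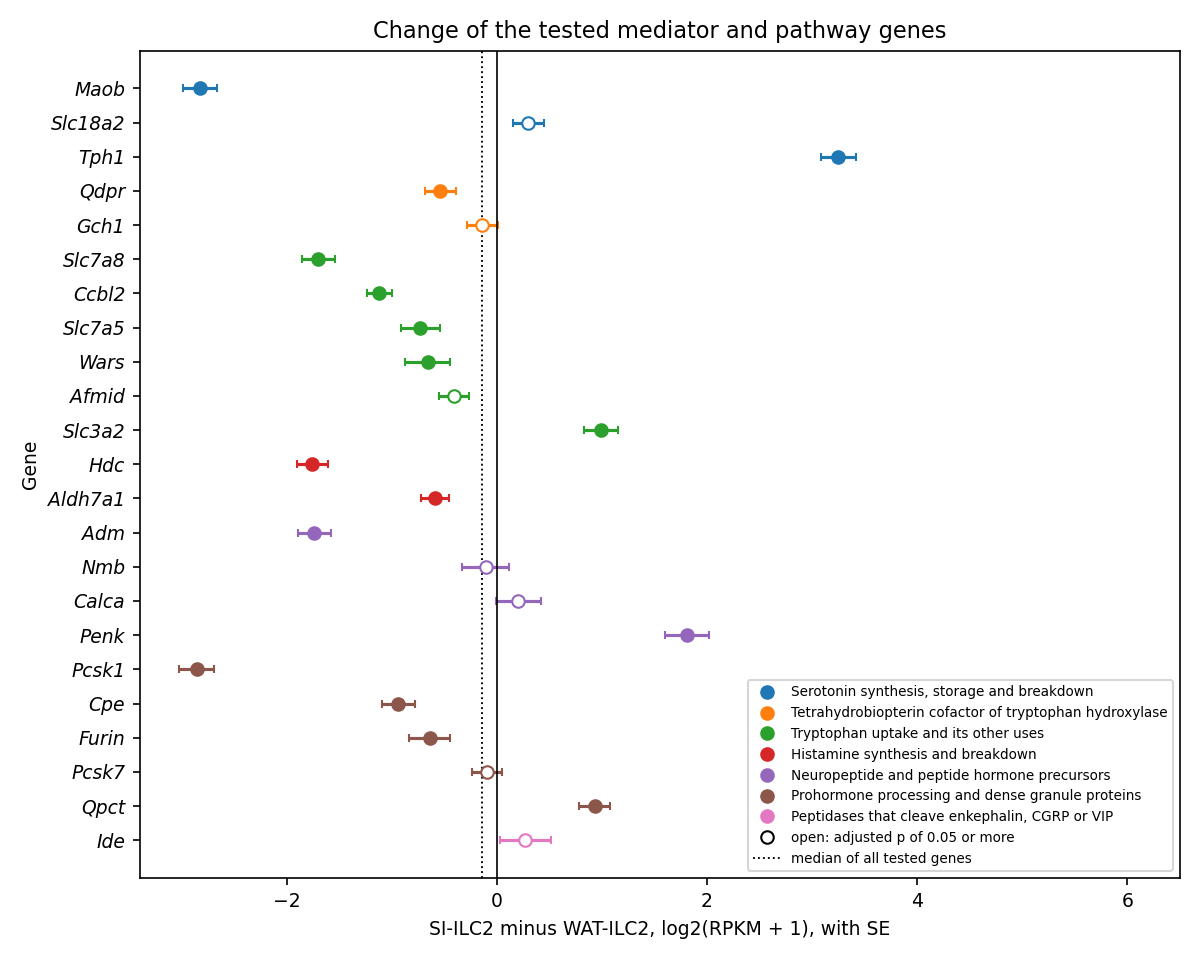
Change (intestinal minus adipose mean of log2(RPKM + 1), with SE) of the tested mediator genes and of named genes of the pathway lists, coloured by list; filled points passed at an adjusted p below 0.05 and the dotted line is the median of all tested genes, -0.15. Tph1 (3.25) and Penk (1.81) lie farthest to the right, and Pcsk1 (-2.86), Maob (-2.83) and Hdc (-1.76) farthest to the left.

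Across the 8 pathway lists, 29 of 102 genes beside the 8 mediator genes were tested. Of these, 12 were higher in WAT-ILC2s, 2 (Slc3a2 and Qpct) in SI-ILC2s and 15 did not pass, to be read against the 29.6% and 17.9% of all tested genes. Without SI-ILC2 replicate 1 these numbers were 6 and 4, and without WAT-ILC2 replicate 2 they were 12 and 6. Median-of-ratios scaling gave 8 and 2, quantile normalization 9 and 3, and rescaling to equal sums 13 and 2. The median change of the 29 was -0.41, against -0.15 over all genes tested.

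Set side by side by their RPKM, the 8 genes ranked differently in the 2 tissues. In SI-ILC2s the order was Calca, Tph1, Penk, Hdc, Calcb, Maoa and Ddc, with no overlap between the libraries of neighbours, although the lower value of Penk (3.96) was close to the higher value of Hdc (3.67) and the lower value of Maoa (0.157) to the higher value of Ddc (0.142). Vip had no place in that order, since its values were the lowest and the third highest of their libraries. In WAT-ILC2s Calca was followed by Hdc and then by Maoa and Tph1, whose values all lay within the range of Penk (0.268 to 0.852 RPKM). Calcb overlapped with Penk above it and with Ddc below it, and Vip was the lowest in both libraries.

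Genes whose values followed those of the mediators most closely were found by the Euclidean distance of log2(RPKM + 1), centred on each gene's mean over the 4 libraries. For Tph1 the nearest was Tnfrsf9, the gene of the costimulatory receptor 4-1BB, at a distance of 0.11, then Scel, Cxcl3, Gls2 and Il4. For Hdc these were Dok2, an adaptor gene, at a distance of 0.049, then Mmp2, Sap25, Wdr90 and Zcchc14. The genes nearest to Penk were H2-Aa, a chain of MHC class II, at a distance of 0.11, then Cd72, H2afz, Icos and Rxrg. For Calca, which did not pass the test, Txndc9 was nearest at a distance of 0.035. With 4 libraries in 2 groups, this measure ranks genes mainly by the size of their tissue difference and by the difference between replicates.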

How the data were processed

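The authors deposited a single table of RPKM values for 22083 genes with a column per library, and every column matched a single sample title. Per the submitters' processing notes, the tools were STAR 2.6.0 and featureCounts 1.6.0 of Subread, with the mouse build GRCm38 (mm10). No source used here states the annotation, the strand setting, the handling of multi-mapped reads or any filter. Since RPKM is a normalized unit, limma was used in place of a count test.

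Genes with at least 1 RPKM in at least 2 libraries were compared on log2(RPKM + 1) with limma 3.58.1 in R 4.3.3 (variance trend, no covariate, all 4 libraries), with Benjamini-Hochberg adjustment over 8230 genes and a threshold of 0.05. The steps were tested on simulated data. Depth was fitted to single-exon genes, in which 85.8% to 86.6% of values fell within 0.1 of a whole read, against 20% by chance. Read numbers per gene use the longest coding transcript of GENCODE M21, are approximate and cover counting error only. Motifs and coding stretches were found with Biopython 1.88.

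The mediator genes and all lists were chosen with earlier results of these data known. Named genes were the mediator genes, from each pathway list up to 4 called genes per direction with the largest changes and the most abundant tested gene that did not pass, from each marker list the 2 most abundant genes, up to 3 called genes and defining genes listed at 0, and the 5 tested genes nearest by profile to each tested mediator gene, except antigen receptor segments and predicted genes. Only those bearing on a mediator gene are printed. Genes at or near 0 and those high in a single library were named after their values were seen. For 4 list members an older symbol was used. Single genes of some lists enter the counts and are not reported here.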

Additional observations from a re-analysis of the deposited data

How the results depend on the processing

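The 12 alternatives were another pseudocount, 2 other filters, 3 scalings, a replicate block, a robust prior and the removal of each library. Counts of calls and genes past the filter were recomputed under all of them. Of the 4 genes below the filter, Ddc and Vip were recomputed with no filter and without each library, and Maoa and Calcb also with the filter of 0.2 RPKM. The replicate block and the removal of a library leave fewer residual degrees of freedom than the main fit. Even so, the adjusted p of Tph1 from limma was 8.2e-25 with the block, against 1.7e-04 in the main fit. Adjusted p-values of Tph1, Penk and Hdc were also far smaller without a WAT-ILC2 library. A call kept with the block or without a WAT-ILC2 library is therefore no stricter check than the main fit. Tph1, Penk and Hdc kept their direction and their call in all 12, with changes from 3.12 to 4.33, from 1.54 to 2.92 and from -1.98 to -1.63. Calca did not pass in any, and its change went from 0.20 to -0.038 with quantile normalization and to -0.011 without SI-ILC2 replicate 1, the lowest and highest values on leaving out a library being -0.011 and 0.42. Maoa was called with no filter (-0.62, adjusted p = 0.013) and with a filter of 0.2 RPKM (-0.62), which it reached through its WAT-ILC2 values alone. Calcb was called with a filter of 0.2 RPKM (0.37) but not with no filter (limma adjusted p = 0.068). No other setting tested Maoa or Calcb. Vip went from 1.36 to between -0.041 and 2.76 on leaving out a library.

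Leaving out a library gave 983 to 1595 genes higher in SI-ILC2s and 1492 to 2551 higher in WAT-ILC2s, the lowest number without SI-ILC2 replicate 1. Of the pathway genes beside the mediator genes, 2 to 6 were then higher in SI-ILC2s and 6 to 12 higher in WAT-ILC2s, and with no filter the numbers were 4 and 8. With the replicate block, 2271 genes and 7 pathway genes were higher in SI-ILC2s, and 3430 genes and 15 pathway genes in WAT-ILC2s. The limit named above for calls with the block applies to these counts. Same-numbered libraries deviated together (r = 0.57 across genes), but the titles give 2 pairs and the labels no shared source, so the numbers were not taken as pairing.

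Among 13 named pathway genes that were called, 5 (Aldh7a1, Furin, Qdpr, Slc7a5 and Wars) lost the call in at least 1 alternative, and 3 that were not called (Afmid, Ide and Slc18a2) passed in at least 1. Directions turned for genes that did not pass: Nmb to 0.065 with quantile normalization and, on leaving out a library, to between -0.41 and 0.20, Pcsk7 to 0.019 and 0.051 with median-of-ratios scaling and quantile normalization, and Ide to between -0.044 and 0.59 on leaving out a library, the lowest value without WAT-ILC2 replicate 1. The cause was not tested. Genes below about 0.1 RPKM rest on a few reads, and differences there were not detectable at this depth.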

Other observations

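Kmo, the kynurenine 3-monooxygenase gene, reached 0.889 and 1.87 RPKM in intestinal cells against 0.0016 and 0.121 in adipose cells, and lay below the filter. Ret, a receptor of neurons that was placed among their markers, had 33.7 and 31.8 RPKM in the intestinal libraries against 1.05 and 0.896 in the adipose ones (limma adjusted p = 5.1e-05), while the glial genes Sox10 and S100b did not exceed 0.135 RPKM in any library. These genes were named after their values were seen.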
